A study of Mus musculus with 12 samples.

Results

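The Id helix-loop-helix genes Id1, Id2, Id3 and Id4 were examined as possible sites of estrogen receptor α (ERα) and progesterone receptor (PR) binding in the mouse mammary gland. A peak was assigned to an Id gene when its summit lay within 50 kb of the gene's span, and 322 of the 741142 peaks in 8 libraries met that rule. Merged across the 8 libraries, these peaks formed 113 of 321963 regions, and the members were 4 of 21887 coding genes. The libraries were chromatin immunoprecipitations with sequencing (ChIP-seq), 2 for each receptor and genotype: PR in Y541S glands, PR in WT glands, ERα in Y541S glands and ERα in WT glands. Y541S mice carried this amino acid change in ERα, in the part of the receptor that binds ligand, and WT mice had unchanged Esr1, the gene of ERα. At 8 weeks of age all mice were implanted with estradiol and progesterone, and glands were taken after 4 days, so no group without hormone enters the comparisons. The labels give whole mammary glands, the series title names luminal cells, and peak positions cannot check either. The replicates are called biological without a statement on the animals behind them, so the spread between them may be partly technical.

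Id proteins are helix-loop-helix proteins without the basic region that contacts DNA. They pair with E proteins such as Tcf3, Tcf4 and Tcf12 and keep them from binding DNA with tissue-specific partners. Bone morphogenetic protein (BMP) signalling through SMAD factors is a well-known inducer of Id genes. In the mouse mammary gland, Id2 is known for its need in alveolar development during pregnancy, and Id4 for its expression in basal cells and its role in ductal growth. ERα and PR are ligand-activated receptors that bind DNA directly or through other factors, often far from gene starts.

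The promoter sequences of Id2, Id3 and Id4 are shown because summits of both receptors lay within 1 kb of these 3 gene starts. Both receptors also had summits within 1 kb of the lower-coordinate end of Id1, whose promoter is not shown. Each runs 5′ to 3′ on the gene's own strand for the 250 bases before the start, from RefSeq on GRCm38.p6, the assembly of mm10. Capitals mark the CCAAT box (CCAAT), the GC box (GGGCGG) and the TATA box (TATAA), read on both strands. The positions are chr12:25096093-25096342 on the minus strand for Id2, chr4:136143572-136143821 on the plus strand for Id3 and chr13:48260866-48261115 on the plus strand for Id4.
Id2 promoter: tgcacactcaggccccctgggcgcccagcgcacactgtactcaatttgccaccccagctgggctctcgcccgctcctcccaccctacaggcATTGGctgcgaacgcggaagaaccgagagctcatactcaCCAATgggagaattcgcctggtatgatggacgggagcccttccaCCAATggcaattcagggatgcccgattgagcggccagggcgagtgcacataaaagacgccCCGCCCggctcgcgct
Id3 promoter: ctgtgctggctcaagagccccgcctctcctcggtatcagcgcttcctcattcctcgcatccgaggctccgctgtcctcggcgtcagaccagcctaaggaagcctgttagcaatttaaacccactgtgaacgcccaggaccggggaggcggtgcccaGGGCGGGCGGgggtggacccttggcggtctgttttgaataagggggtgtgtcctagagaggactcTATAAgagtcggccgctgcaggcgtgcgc
Id4 promoter: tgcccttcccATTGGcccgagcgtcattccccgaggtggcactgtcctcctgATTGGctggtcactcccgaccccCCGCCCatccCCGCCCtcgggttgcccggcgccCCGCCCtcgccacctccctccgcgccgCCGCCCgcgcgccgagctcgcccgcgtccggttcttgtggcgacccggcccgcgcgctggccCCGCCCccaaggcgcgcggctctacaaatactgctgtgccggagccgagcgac

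The 3 promoters differed in their core boxes. Id2 held 3 CCAAT boxes and 1 GC box, Id3 held 2 overlapping GC boxes and a TATA box 29 bases before the start, and Id4 held 2 CCAAT boxes and 5 GC boxes. Of 32851 mouse promoters of the same length, 33.9% held a CCAAT box, 32.7% a GC box and 22.8% a TATA box. The Id4 window had 75.6% G and C, against 62.8% in Id2, 62.8% in Id3 and a median of 52.4% over all promoters. None of the 3 windows held a full estrogen response element (GGTCANNNTGACC, in 0.0639% of promoters) or a full progesterone response element (GNACANNNTGTNC, in 0.387%). A single arm of the estrogen element (GGTCA) was found 1 time, in Id4, and is in 35.2% of promoters. A single arm of the progesterone element (TGTNCT) was found 1 time in Id2, 3 times in Id3 and 1 time in Id4, and is in 44.7% of promoters. An E box (CANNTG), the site of E proteins, was found 1 time in Id2, and is in 66.2% of promoters. These matches describe letters within the 250 bases and do not show binding.

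Lists were between 64488 and 113695 peaks long, and both Y541S lists of each receptor were longer than both WT lists. The 0.001 quantile of the local expectation of coverage in a list, used here as its background depth, was 2.45 and 1.35 for PR in Y541S replicates 1 and 2, and 2.68 and 0.927 for PR in WT replicates 1 and 2. It was 2.29 and 1.72 for ERα in Y541S, and 2.39 and 1.303 for ERα in WT. Depth therefore differed more between replicates than between genotypes, and a region missing from a list can still hold signal below the list's threshold.

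Around the Id genes, both receptors had listed peaks in every library, with most peaks around Id1 and Id3 and fewest around Id4. Id1, on chromosome 2, had 12 and 13 PR peaks in Y541S glands, against 11 and 17 in WT glands. It had 17 and 16 ERα peaks in Y541S glands, against 15 and 17 in WT glands. The genotypes overlapped for both receptors at Id1.

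Id2, on chromosome 12, had 10 and 6 PR peaks in Y541S glands, against 7 and 10 in WT glands, and 8 and 9 ERα peaks in Y541S glands, against 7 and 8 in WT glands. The genotypes overlapped or touched for both receptors at Id2. Id3, on chromosome 4, had 20 and 16 PR peaks in Y541S glands, against 10 and 14 in WT glands. Its ERα peaks numbered 17 and 14 in Y541S glands, against 13 and 13 in WT glands. Both Y541S libraries of each receptor thus had more peaks around Id3 than both WT libraries. Id4, on chromosome 13, had 4 and 2 PR peaks in Y541S glands, against 1 and 3 in WT glands, and 6 and 3 ERα peaks in Y541S glands, against 2 and 1 in WT glands. Its genotypes overlapped for PR and stood apart for ERα.

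More peaks in both Y541S than in both WT libraries were therefore seen for 1 of the 4 Id genes with PR and for 2 of the 4 with ERα. Among all coding genes that ordering held for 24.5% with PR and for 40.8% with ERα. The median coding gene had 6 to 10 peaks per library. Id1 had more peaks than 59.9% to 96.5% of coding genes, depending on the library, and Id3 more than 63.0% to 89.1%. Id2 had more than 34.4% to 60.6% of coding genes, and Id4 more than 16.0% to 31.2%. In each of the 8 libraries Id4 had the fewest peaks and Id2 the next fewest, while Id1 and Id3 changed places.

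**Figure D1:**
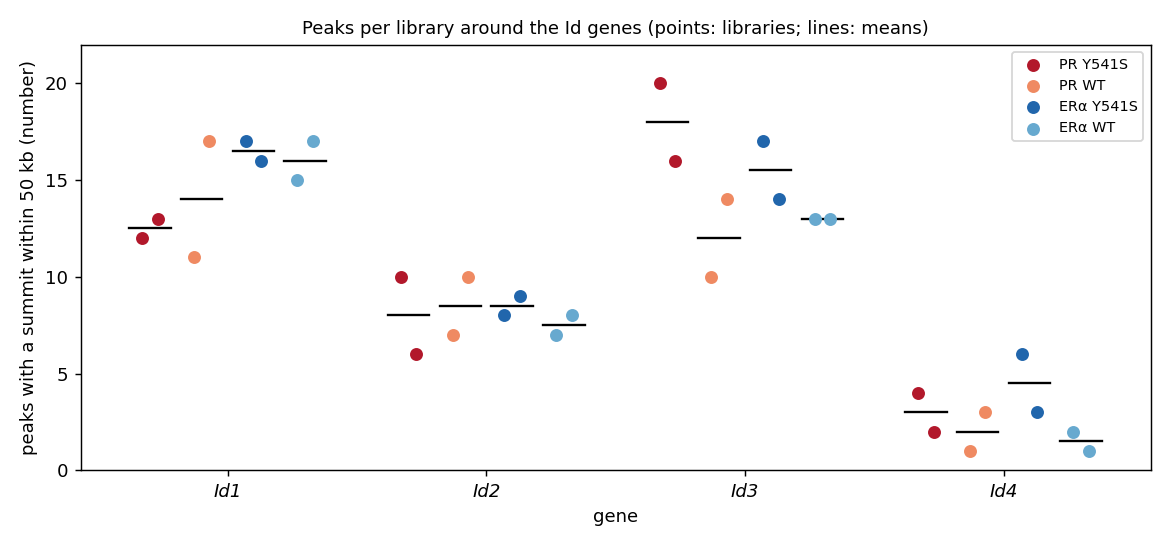
Number of peaks with a summit within 50 kb of each Id gene (vertical axis, peaks per library), for PR in Y541S and WT glands and for ERα in Y541S and WT glands. Points are single libraries and black lines are means of 2. Id4 has 1 to 6 peaks per library, below every other Id gene in the same library, and Id3 has 20 and 16 PR peaks in Y541S against 10 and 14 in WT.

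Summed over the 4 genes, PR libraries held 46 and 37 peaks in Y541S glands, against 29 and 44 in WT glands. The ratio of geometric means was 1.16 (log2 0.21, exact permutation p = 0.667, two-sided, n = 2 each). The PR values of the genotypes overlapped, and leaving out WT replicate 1 of PR turned the log2 difference to −0.09. ERα libraries held 48 and 42 peaks in Y541S glands, against 37 and 39 in WT glands. That ratio was 1.18 (log2 0.24, exact permutation p = 0.333, two-sided, n = 2 each), the smallest p that 2 against 2 libraries can give. The Y541S and WT values of ERα did not overlap.

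Set against the length of each list, the ERα order turned round. There were 4.49 and 3.98 ERα peaks around the Id genes per 10000 listed peaks in Y541S glands, against 5.10 and 6.05 in WT glands. The log2 difference was −0.39 (exact permutation p = 0.333, two-sided, n = 2 each). For PR the values were 4.05 and 3.65 per 10000 in Y541S glands, against 3.50 and 4.71 in WT glands, and the log2 difference was −0.08 (exact permutation p = 1, two-sided). The genotype difference in peak number was 0.03 larger on the log2 scale for ERα than for PR (exact permutation p = 0.944 over 36 arrangements, two-sided, n = 2 each). No genotype difference in peak number around the Id genes was therefore shown for either receptor.

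The number of peaks did not separate the receptors either. PR and ERα were precipitated with different antibodies, so their lists can differ for reasons beyond binding. This limit holds for every comparison of PR with ERα below. In Y541S glands the 46 and 37 PR peaks stood against 48 and 42 ERα peaks, a log2 difference of −0.12 (exact permutation p = 0.667, two-sided, n = 2 each). It became 0.03 without PR replicate 2. In WT glands the 29 and 44 PR peaks stood against 37 and 39 ERα peaks, a log2 difference of −0.09 (exact permutation p = 1, two-sided, n = 2 each). It became 0.21 without PR replicate 1. In both genotypes the ranges of PR and ERα peak numbers overlapped. Per 10000 listed peaks, the Y541S values of the receptors also overlapped (log2 −0.14, exact permutation p = 0.667, two-sided, n = 2 each). In WT glands the 3.50 and 4.71 of PR lay below the 5.10 and 6.05 of ERα. That log2 difference was −0.45 (exact permutation p = 0.333, two-sided, n = 2 each). Among the 20000 strongest peaks it was −0.59 in Y541S and −0.63 in WT (exact permutation p = 0.333 for each). Such a p is the smallest that 2 against 2 libraries can give.

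**Figure D2:**
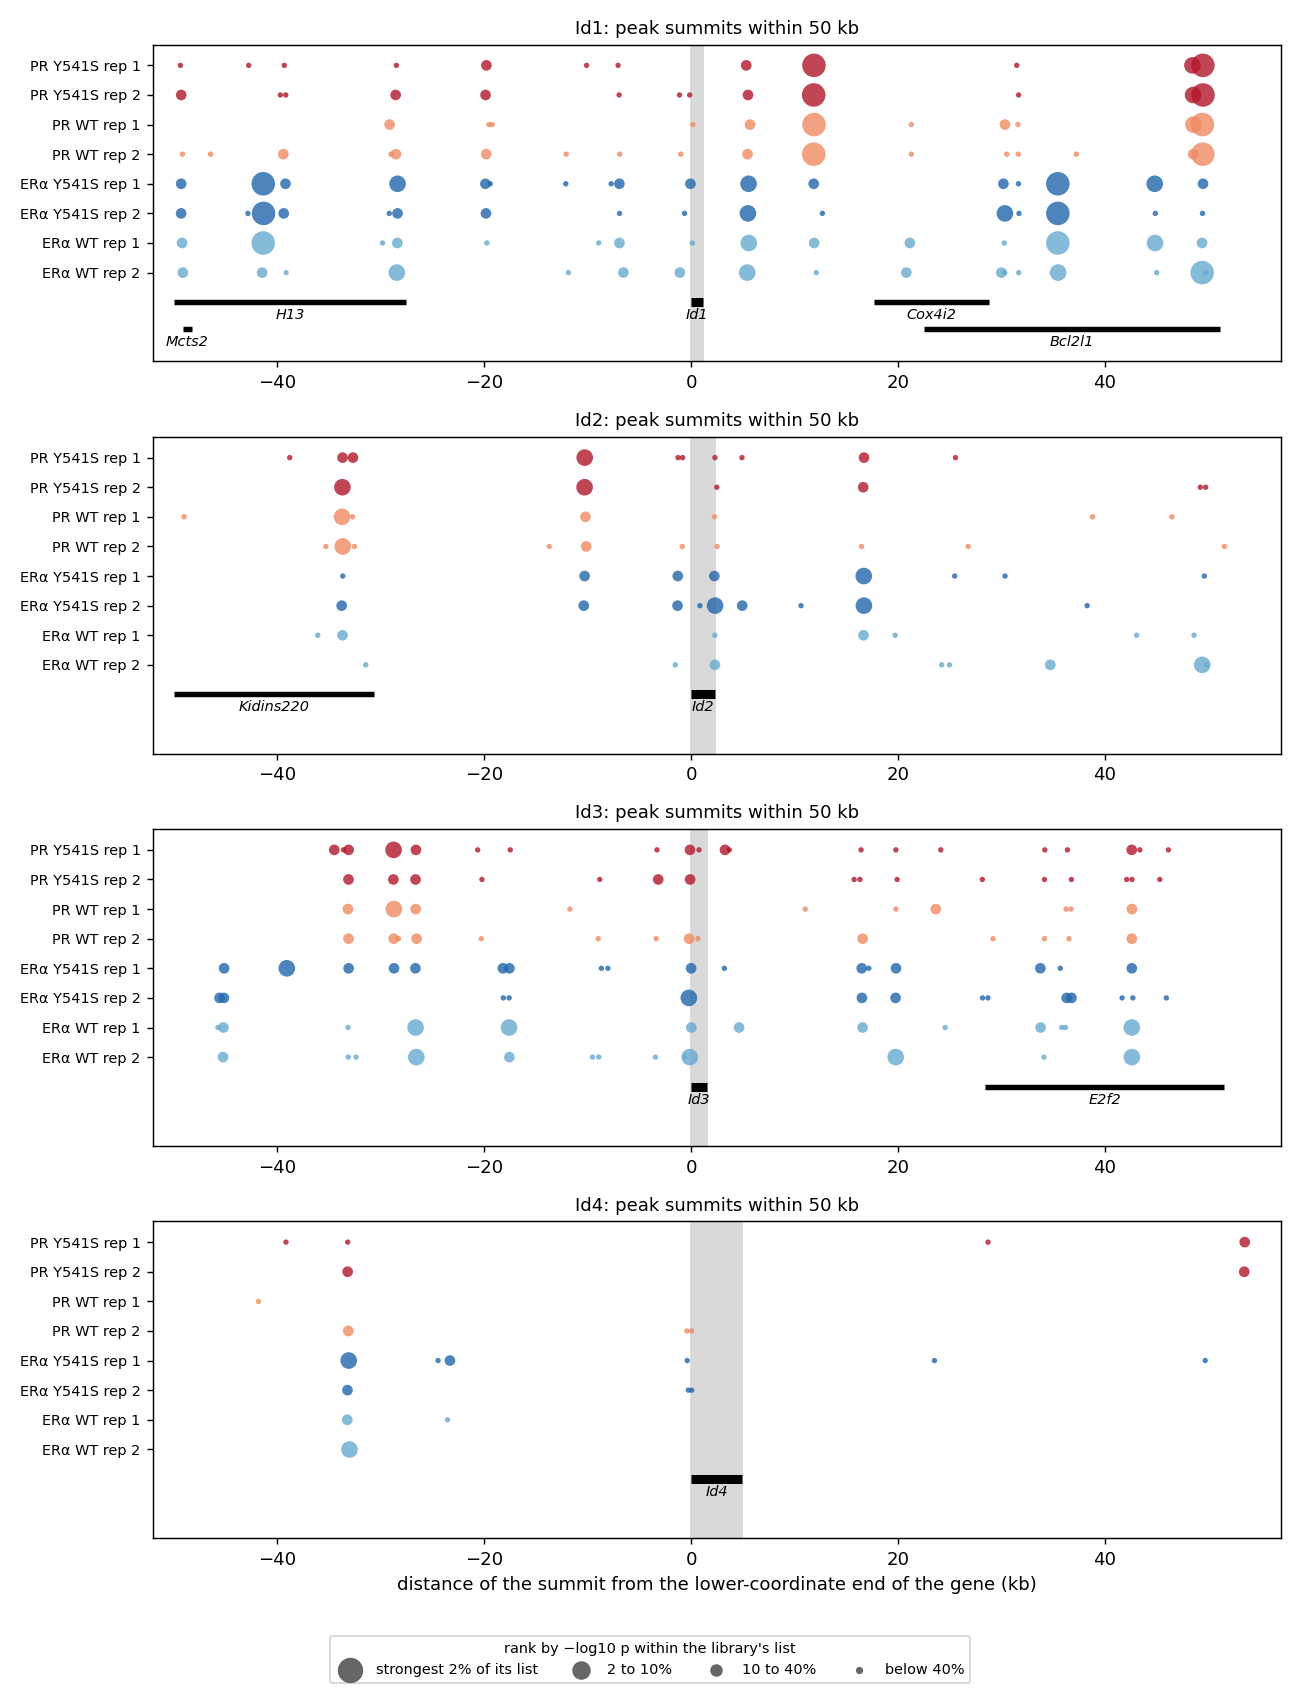
Summits of every peak around Id1, Id2, Id3 and Id4, by library (rows) and distance in kb from the lower-coordinate end of the gene (horizontal axis); larger points are better ranked within their own list. Grey bands are the Id genes and black bars are coding genes, and the largest PR points stand at 2 positions to the right of Id1, while ERα has its largest points at 2 other positions of that window and, in WT replicate 2, at the outer PR position.

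Some positions were listed for 1 receptor only. Of the 113 regions, 4 (3.54%) had a peak in all 8 libraries, against 3.76% of regions over the genome. That count was 9 without PR WT replicate 1 and 7 without ERα Y541S replicate 2, 1 with −log10 p of at least 5, and 0 among the 20000 strongest peaks of each list. A further 1 region (0.885%) was in all 4 PR and no ERα libraries, against 2.55% over the genome. It became 2 without PR Y541S replicate 2 or without ERα Y541S replicate 1, and 3 among the 20000 strongest peaks. In the reverse direction, 4 regions (3.54%) were in all 4 ERα and no PR libraries, against 0.505% over the genome, and the count was 2 among the 20000 strongest peaks. Of those 4 regions, 3 lay around Id1 and 1 around Id3. A split of 4 libraries against 0 has an exact Fisher p of 0.0286 (two-sided), and 0.934 after Benjamini-Hochberg adjustment over the 321963 regions. Since 4 against 0 is the most extreme split of these libraries, no region could reach a smaller p. The test therefore cannot single out a region, and nothing is concluded from it. Peaks in 1 library alone made up 57 of the 113 regions, with 9 at Id1, 20 at Id2, 22 at Id3 and 6 at Id4. The share of such regions over the genome was not computed, so whether this count is particular to the Id genes is not known.

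Regions were mostly away from the genes. Of the 113, 104 had their summit more than 1 kb from the span of the Id gene. The genes span 1160 to 4913 bp of windows of 101160 to 104913 bp, so most of the sequence searched lies away from them. The same share around other genes was not computed, so these counts only describe positions. By side, 51 lay on the lower-coordinate side of the gene, 58 on the higher side and 4 had a summit inside it. Other coding genes shared the windows of Id1, Id2 and Id3, so a region's place near an Id gene does not give its target. The Id1 window (chr2:152736251-152737410 for the gene) also held H13, a signal peptide peptidase gene 27.6 kb away, and Mcts2, a retrogene 48.3 kb away, on the lower side. On the higher side it held Cox4i2, a cytochrome c oxidase subunit gene 16.5 kb away, and Bcl2l1, which encodes the survival protein Bcl-xL, 21.3 kb away. The Id2 window (gene at chr12:25093799-25096092) held Kidins220, a membrane scaffold gene, 30.7 kb away. The Id3 window (gene at chr4:136143822-136145392) held E2f2, a cell-cycle transcription factor gene, 26.9 kb away. The Id4 window (gene at chr13:48261116-48266028) held no other coding gene.

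Around Id1, the regions ranked best by PR were not those ranked best by ERα in most libraries. The region at chr2:152747695-152748433, 10.7 kb to the higher side and outside any coding gene, was among the strongest PR regions in every PR library. Its peak ranked in the top 0.446% and 0.600% of the PR lists in Y541S glands, and in the top 0.700% and 1.48% in WT glands. Its summit coverage was 201 and 88 in Y541S glands, against 79 and 54 in WT glands, over local expectations of 8.46 and 3.32 in Y541S and 4.57 and 2.78 in WT. ERα had a peak there in Y541S replicate 1 (top 19.8%) and in WT replicates 1 and 2 (top 30.7% and 87.6%), with coverage of 15 in Y541S and 15 and 6 in WT. ERα Y541S replicate 2 had no peak there.

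A second strong PR region lay inside Bcl2l1 at chr2:152785333-152786263, 48.3 kb from Id1, and was listed in all 8 libraries. PR peaks ranked in the top 0.645% and 0.163% in Y541S glands, and in the top 0.312% and 0.0727% in WT glands. PR coverage was 255 and 163 in Y541S glands, against 130 and 145 in WT glands. ERα coverage there was 28 and 14 in Y541S glands, against 31 and 36 in WT glands. ERα ranks were in the top 11.6% and 62.8% in Y541S, and in the top 16.3% and 1.37% in WT, so 1 WT library ranked the region far above the other 3. Next to it, 47.4 kb from Id1, chr2:152784531-152785009 was the region in all 4 PR and no ERα libraries. Its PR coverage was 119 and 61 in Y541S glands, against 56 and 41 in WT glands. The local expectation at this region was 19.5 and 11.2 in Y541S and 11.4 and 9.94 in WT, several times the background depth of each library.

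The 3 regions around Id1 with ERα in every ERα library and no PR peak were in H13 and Bcl2l1. The region at chr2:152694328-152695125, in H13 and 41.4 kb to the lower side, had ERα coverage of 77 and 43 in Y541S glands, against 91 and 15 in WT glands. Its ranks were in the top 0.908% and 1.07% in Y541S, and in the top 1.27% and 17.2% in WT. WT replicate 2 was the low library, with a fold enrichment over local expectation of 3.95, against 9.59 in WT replicate 1. Its background depth was 1.303, the lowest of the ERα libraries, against 2.39 in WT replicate 1. The part of depth was not tested.

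The region at chr2:152771295-152772092, in Bcl2l1 and 34.3 kb to the higher side, had ERα coverage of 53 and 36 in Y541S glands, against 132 and 19 in WT glands. Its ranks were in the top 1.34% and 1.24% in Y541S, and in the top 0.540% and 4.85% in WT. The genotypes overlapped at both regions, with the WT libraries giving the highest and the lowest coverage. The region at chr2:152780780-152781406, 43.7 kb away in Bcl2l1, was less even. Its coverage was 46 and 12 in Y541S, against 42 and 10 in WT, and its ranks were in the top 2.51% and 64.3% in Y541S, and in the top 5.48% and 89.1% in WT. Replicate 1 was high and replicate 2 low in both genotypes.

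Nearer to Id1, chr2:152741282-152742163, 4.34 kb to the higher side, was the other region listed in all 8 libraries. ERα ranked it in the top 3.76% and 4.86% in Y541S glands, and in the top 7.21% and 6.75% in WT glands. PR ranked it in the top 34.2% and 13.3% in Y541S glands, and in the top 30.1% and 28.8% in WT glands. Every ERα library ranked it above every PR library within their own lists. At the gene itself peaks were weak and scattered. At chr2:152735766-152736483, PR had coverage of 11 in Y541S replicate 2 and 11 in WT replicate 1. At chr2:152736100-152736678, ERα had 18 in Y541S replicate 1 and 18 in WT replicate 1. Neither receptor had both replicates of a genotype there. A PR region 1.06 kb to the lower side, chr2:152735041-152735439, was also seen in 1 library of each genotype, with coverage of 13 in Y541S and 12 in WT, and an ERα region at chr2:152735464-152735711 only in Y541S replicate 2, with 13.

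**Figure D3:**
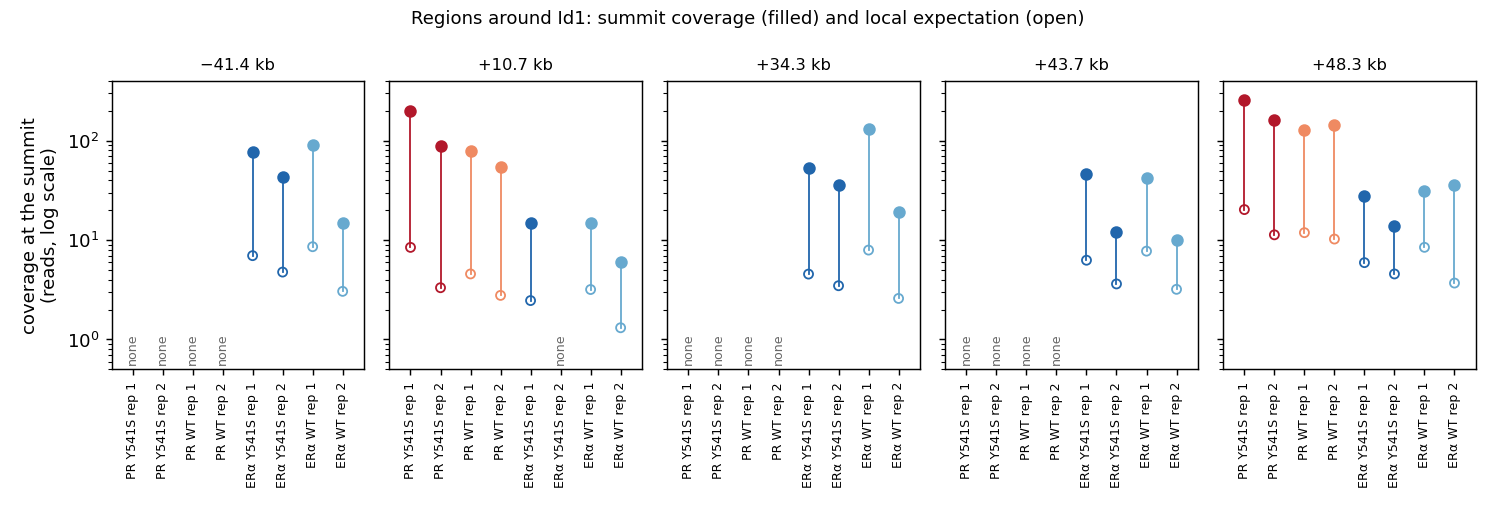
Coverage at the summit (filled points) and local expectation (open points) in each library, on a log scale, for 5 regions around Id1 named by their distance in kb from the gene. Libraries run from PR in Y541S to ERα in WT, and none marks a library without a listed peak; the PR coverage at +10.7 kb is 201, 88, 79 and 54, and at −41.4, +34.3 and +43.7 kb only ERα has peaks.

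Id2 had 3 PR regions in all 4 PR libraries and 1 ERα region in all 4 ERα libraries. The best-ranked PR region, chr12:25059858-25060397, lay in Kidins220, 33.7 kb to the lower side. Its PR coverage was 63 and 42 in Y541S glands, against 28 and 24 in WT glands, and its ranks were in the top 10.7% and 5.05% in Y541S and in the top 9.16% and 9.06% in WT. ERα was listed there in both Y541S libraries with coverage of 10 and 10 and in WT replicate 1 with 20. The second PR region, chr12:25083181-25084029, was intergenic with respect to coding genes and 10.3 kb from Id2, beyond its 3′ end. Its PR coverage was 91 and 51 in Y541S glands, against 27 and 11 in WT glands, over expectations of 5.36 and 2.75 in Y541S and 3.58 and 1.16 in WT. PR ranks there were in the top 5.38% and 3.13% in Y541S, and in the top 10.7% and 29.7% in WT. Both Y541S libraries ranked it above both WT libraries, and coverage is not scaled between libraries.

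At that second region ERα had a peak in each Y541S library and in no WT library. Its ERα coverage was 12 and 9 in Y541S glands, over expectations of 2.29 and 1.72, and its ranks were in the top 31.1% and 36.1%. The third PR region was the start of Id2, chr12:25095909-25096820, which was the 1 region of this window listed in all 8 libraries. PR coverage at the start was 29 and 22 in Y541S glands, against 13 and 18 in WT glands. ERα coverage there was 23 and 27 in Y541S glands, against 20 and 14 in WT glands. By coverage, both Y541S libraries were above both WT libraries for each receptor. Coverage is not scaled for depth, and the part of depth was not tested. PR ranks were in the top 55.3% and 41.6% in Y541S and in the top 61.0% and 41.0% in WT, so the genotypes overlapped. ERα ranks were in the top 23.2% and 7.65% in Y541S, and in the top 40.9% and 28.7% in WT. ERα also had a peak inside Id2, at chr12:25094628-25094812, only in Y541S replicate 2.

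Summits at the Id2 start fell within the 250 bases printed above or just after them. PR summits lay 15 and 197 bp before the start in Y541S glands, and 25 bp after and 219 bp before it in WT glands. ERα summits lay 43 bp after and 28 bp before the start in Y541S glands, and 7 and 13 bp before it in WT glands. The 4 ERα summits spanned the start, and 2 of the 4 PR summits lay about 200 bp before it, near the progesterone-element arm at 215 and the E box at 196 bases before the start. Per the labels' protocols, the chromatin was sheared to fragments longer on average than these distances.

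**Figure D4:**
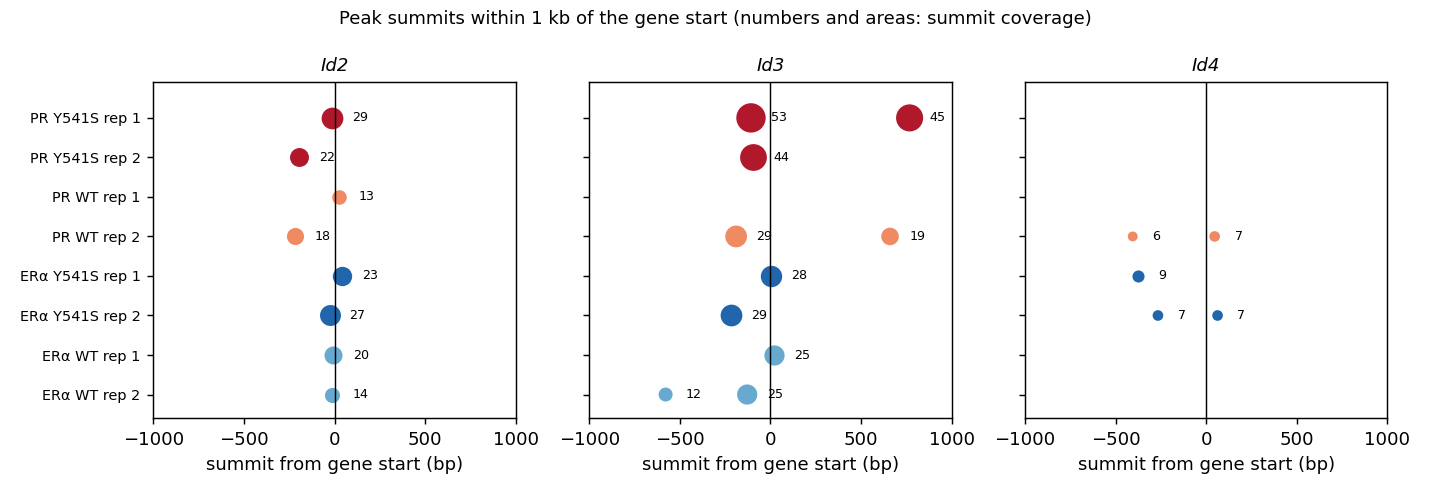
Peak summits within 1 kb of the starts of Id2, Id3 and Id4, by library (rows) and distance in bp from the start, negative before it (horizontal axis). Numbers and point areas give summit coverage, and libraries without a point have no listed peak; Id2 has 1 summit in each of the 8 libraries, Id3 has none in PR WT replicate 1, and Id4 has coverage of 6 to 9 in 3 libraries.

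Around Id3, the best-ranked PR regions lay close together before the gene. The 3 best-ranked regions in all 4 PR libraries lay 33.1, 28.8 and 26.6 kb to the lower side, before the gene's start and outside any coding gene. At chr4:136110082-136111048, PR coverage was 74 and 36 in Y541S glands, against 34 and 30 in WT glands. At chr4:136114820-136115350, it was 97 and 42 in Y541S glands, against 43 and 25 in WT glands. At chr4:136116856-136117623, it was 73 and 39 in Y541S glands, against 32 and 24 in WT glands. At the first and last of these regions, both Y541S libraries had higher PR coverage than both WT libraries. Their ranks did not follow that order, since the first was in the top 14.9% and 12.7% of the lists in Y541S and in the top 10.9% and 10.1% in WT.

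ERα was listed at these positions in 3, 1 and 3 of its 4 libraries. ERα Y541S replicate 2 had no peak at any of them. At chr4:136116856-136117623, ERα coverage was 24 in Y541S replicate 1, against 29 and 16 in WT glands, with ranks in the top 10.2% in Y541S and in the top 8.05% and 9.64% in WT. At chr4:136114820-136115350, only ERα Y541S replicate 1 had a peak, with coverage of 24.

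The region with ERα in every ERα library and no PR peak near Id3 was chr4:136098043-136098892, 45.2 kb to the lower side. Its ERα coverage was 19 and 14 in Y541S glands, against 21 and 9 in WT glands, with ranks in the top 14.1% and 17.5% in Y541S and in the top 15.3% and 32.1% in WT. The genotypes overlapped there. On the other side, chr4:136186250-136186769 in E2f2, 41.05 kb from Id3, was the 1 region of this window listed in all 8 libraries. Its PR coverage was 53 and 10 in Y541S glands, against 21 and 18 in WT glands, and its ERα coverage was 23 and 10 in Y541S glands, against 28 and 14 in WT glands. Replicate 2 in Y541S was the lowest library for both receptors.

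At the start of Id3, ERα was listed in all 4 libraries at chr4:136143420-136144046 and PR in 3 of 4, all but WT replicate 1, at chr4:136143399-136144020. PR coverage was 53 and 44 in Y541S glands and 29 in WT replicate 2. ERα coverage was 28 and 29 in Y541S glands, against 25 and 25 in WT glands. The ERα ranks were in the top 19.7% and 8.26% in Y541S, and in the top 27.2% and 5.87% in WT, so the genotypes overlapped by rank. PR summits lay 107 and 95 bp before the start in Y541S glands and 189 bp before it in WT replicate 2. The 2 GC boxes of the printed sequence begin 94 and 90 bases before the start, and the single progesterone-element arms 249, 179 and 46 bases before it. ERα summits lay 5 bp after and 216 bp before the start in Y541S glands, and 19 bp after and 128 bp before it in WT glands.

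A separate PR region inside Id3, chr4:136144357-136144852, was listed in Y541S replicate 1 and WT replicate 2 with coverage of 45 and 19. A separate ERα region before the gene, chr4:136143105-136143416, was listed only in WT replicate 2, with coverage of 12. These peaks were in 1 library of a group and are not replicated.

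Id4 had the fewest regions, 11 of the 113, and 6 of them were in a single library. Its 1 region in all 4 ERα libraries, chr13:48227706-48228370, lay 33.2 kb before the gene within the long noncoding RNA gene A330033J07Rik. ERα coverage there was 19 and 14 in Y541S glands, against 15 and 19 in WT glands, with ranks in the top 9.54% and 10.9% in Y541S and in the top 19.9% and 2.44% in WT. PR was listed there in 3 libraries, with coverage of 16 and 20 in Y541S glands and 11 in WT replicate 2. The genotypes overlapped for ERα, and 1 WT library decided whether PR counted as present throughout.

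The start of Id4 held peaks of low coverage. At chr13:48260553-48260897, ERα had a peak in each Y541S library, with coverage of 9 and 7, and in no WT library. The ranks were in the top 65.1% and 70.8% of the Y541S lists, near the weak end, over expectations of 2.29 and 1.72 that equal the background depth of those libraries. PR had a peak at chr13:48260563-48260908 in WT replicate 2 alone, with coverage of 6. Just inside the gene, ERα Y541S replicate 2 had a peak at chr13:48261091-48261331 and PR WT replicate 2 one at chr13:48261037-48261236, each with coverage of 7. On the far side of the gene, chr13:48314493-48314839, 48.6 kb away, had PR in each Y541S library and in no WT library. Its PR coverage was 25 and 13, over expectations of 2.45 and 1.35, with ranks in the top 31.0% and 33.3% of the lists.

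**Figure D5:**
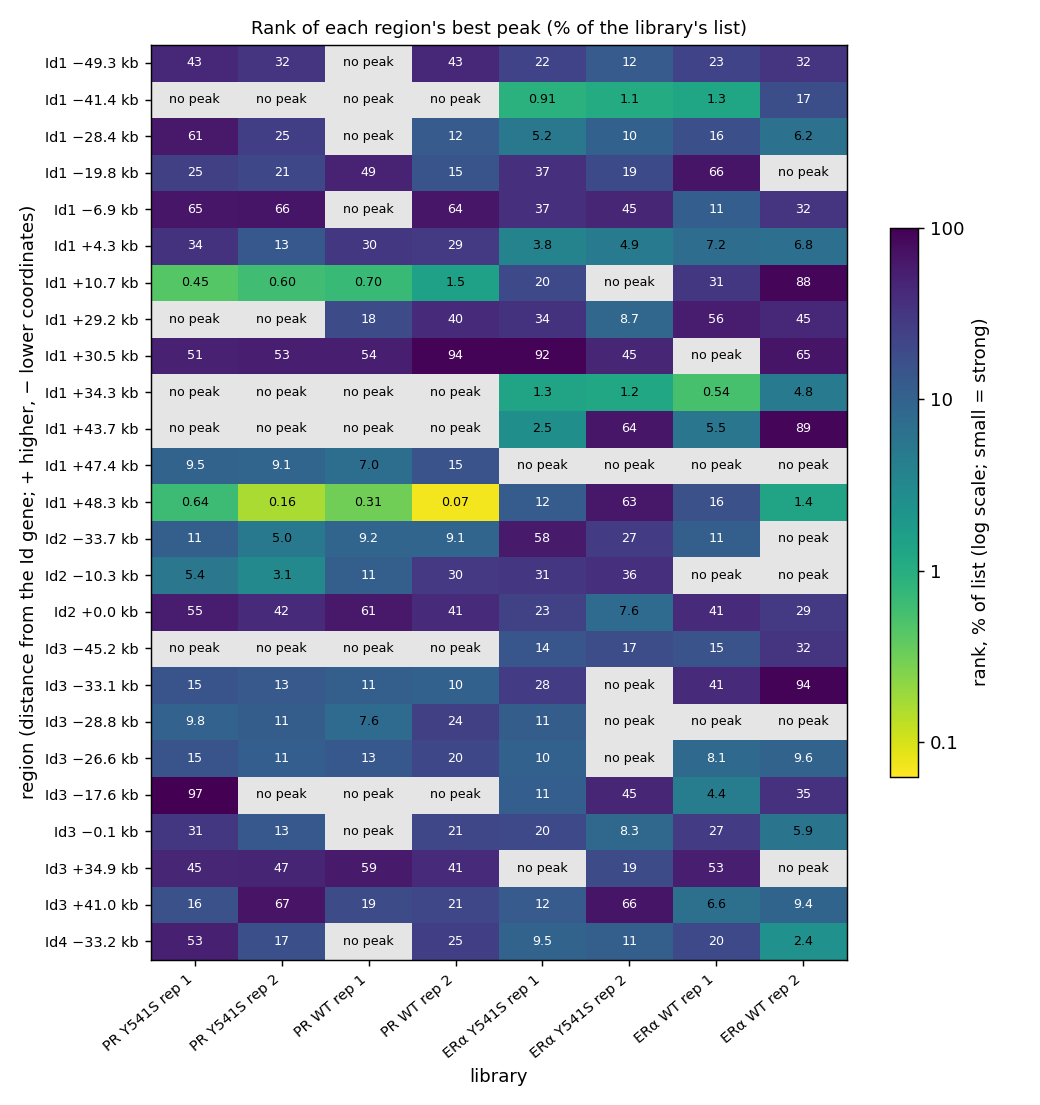
Rank of the best peak of each of the 25 regions in all 4 libraries of at least 1 receptor, as a percentage of the library's list (log colour scale, small is strong), with regions in rows by distance in kb from the Id gene and libraries in columns. Grey cells have no listed peak. PR has 0.645, 0.163, 0.312 and 0.0727 at Id1 +48.3 kb and 0.446, 0.600, 0.700 and 1.48 at Id1 +10.7 kb, and ERα reaches 0.540 at Id1 +34.3 kb.

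Regions listed in 1 genotype were few around the Id genes. Of 77 PR regions, 14 (18.2%) were in all 4 PR libraries, against 19.8% of PR regions over the genome. In both Y541S and neither WT library there was 1 PR region (1.299%, against 6.92% over the genome), the one 48.6 kb from Id4. In both WT and neither Y541S library there were 3 PR regions (3.896%, against 0.558%), all around Id1. Of 82 ERα regions, 14 (17.1%) were in all 4 ERα libraries, against 8.92% over the genome. ERα had 2 Y541S-only regions (2.44%, against 4.48%), those 10.3 kb from Id2 and at the Id4 start, and 1 WT-only region (1.22%, against 0.63%), around Id1. Merged over all 8 libraries, 15 regions held all 4 ERα libraries, because a PR peak 6.93 kb from Id1 bridged ERα peaks.

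The WT-only regions around Id1 were weak in at least 1 library. The PR region chr2:152766453-152766905, 29.3 kb away in Bcl2l1, had coverage of 20 and 11 in WT glands, with ranks in the top 18.1% and 40.3%. It overlapped an ERα region listed in all 4 ERα libraries, with ERα coverage of 14 and 19 in Y541S glands and 14 and 11 in WT glands. The PR regions chr2:152707011-152707300, 29.1 kb to the lower side in H13, and chr2:152757424-152757713, 20.1 kb to the higher side, had coverage of 18 and 7, and of 12 and 4, in WT glands. The ERα WT-only region, chr2:152756954-152757505, overlapped the last of these and had coverage of 15 and 9. The PR WT-only region in H13 ended just before another PR region, chr2:152707338-152708203. That neighbour was listed in both Y541S libraries and in WT replicate 2, so PR in Y541S glands was not absent from the spot. Leaving out 1 library loosens the definition of a genotype-specific region, since presence or absence is then asked of 1 library and not 2. Such counts can therefore rise but hardly fall, and most rose. The PR Y541S-only count became 7 without Y541S replicate 1, 18 without Y541S replicate 2, 2 without WT replicate 1 and 11 without WT replicate 2. The PR WT-only count became 14 without WT replicate 1 and 11 without WT replicate 2. The ERα Y541S-only count became 15 and 14 without Y541S replicates 1 and 2, and 8 and 6 without WT replicates 1 and 2. The ERα WT-only count became 4 without Y541S replicate 1, and 13 and 9 without WT replicates 1 and 2.

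By gene, PR regions in all 4 libraries lay around 3 of the 4 Id genes, all but Id4, against 78.2% of coding genes. ERα regions in all 4 libraries lay around 4 of the 4, against 72.4% of coding genes. A PR Y541S-only region lay around 1 of the 4, Id4, against 55.2% of coding genes, and an ERα Y541S-only region around 2 of the 4, Id2 and Id4, against 49.4%. With 4 members these shares are descriptions.

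The receptors met at part of these regions. Of 25 ERα regions in both Y541S replicates, 17 (68.0%, 95% Wilson interval 48.4% to 82.8%) overlapped a PR region in both Y541S replicates, against 62.3% of such ERα regions over the genome. In WT glands it was 9 of 18 (50%, 29.0% to 71.0%), against 55.7% over the genome. The intervals cover counting error only, overlap each other and hold the genome's value. The Y541S share was 44.7% without ERα replicate 2, and 0 of 8 regions overlapped among the 20000 strongest peaks of each list. The WT share was 72.2% without PR replicate 1 and 24.3% without ERα replicate 1, and 28.6% with −log10 p of at least 5. Of the 14 regions in all 4 PR libraries, 4 had ERα in 4 libraries, 6 in 3, 2 in 2, 1 in 1 and 1 in none. Over the genome, 12113 regions were in all 8 libraries and 8221 in all 4 PR and no ERα libraries. Merged over the PR libraries alone, 38120 regions were in all 4 PR libraries.

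Genes of the partners and inducers of Id proteins were read against all coding genes, of which 78.2% had a region in all 4 PR libraries and 72.4% one in all 4 ERα libraries. Each of the 3 E protein genes had regions in all 4 PR and in all 4 ERα libraries, with a median of 11 for PR and 7 for ERα, against 3 and 2 over all coding genes. Tcf12 and Tcf4 had 11 PR regions each and Tcf3 had 6, and in ERα the numbers were 7 for Tcf12, 7 for Tcf3 and 6 for Tcf4. These are counts around genes of unequal length, so a long gene's window holds more sequence. Of 27 other basic helix-loop-helix genes, 22 had a region in all 4 PR libraries (median 2) and 18 in all 4 ERα libraries (median 1), close to those shares. Twist2 had 10 such PR regions, and Bhlhe40 had 7 such ERα regions.

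Of 24 BMP and SMAD genes, 20 had a region in all 4 PR libraries (median 3) and 19 in all 4 ERα libraries (median 2), also close to the shares over all coding genes. Bmpr1b, a BMP type I receptor gene, had 15 PR regions, Acvrl1, an endothelial receptor gene of the same family, had 11, and Bmp7, a ligand gene, had 9. In ERα, Acvrl1 had 9, Eng, its coreceptor gene, had 5, and Chrd, which encodes a BMP antagonist, had 4. All 5 ETS factor genes examined had regions of both receptors, with medians of 6 for PR and 4 for ERα, and Ets2 had 11 PR and 7 ERα regions. Y541S-only regions lay around 3 of 3 E protein genes, 18 of 24 BMP and SMAD genes, 14 of 27 other basic helix-loop-helix genes and 3 of 5 ETS genes for PR. For ERα these were 3 of 3, 17 of 24, 12 of 27 and 4 of 5. The shares over all coding genes, given above, were 55.2% for PR and 49.4% for ERα.

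Marker genes of each cell type examined included some with regions in all 4 libraries, as did 78.2% of coding genes for PR and 72.4% for ERα. For PR the numbers were 5 of 6 hormone-sensing luminal, 4 of 5 luminal progenitor and alveolar, 5 of 6 basal, 5 of 5 adipocyte, 5 of 5 endothelial, 4 of 4 fibroblast and 5 of 5 immune marker genes. For ERα they were 3 of 6, 4 of 5, 5 of 6, 5 of 5, 4 of 5, 2 of 4 and 4 of 5 in the same order. Peak lists hold no expression, and the part of cell composition in the Id results was not tested.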

How the data were processed

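ChIP-seq of PR and ERα was analysed in 8 libraries, 2 for each receptor and genotype. A further 4 samples, with D542G, are not analysed here. Per the labels' protocols, 4 µg of antibody was used for 30 µg of formalin-fixed, sonicated chromatin. The authors deposited 1 peak list per library, and mm10 is the build in the submitters' processing notes. How reads were aligned, how peaks were called and whether input DNA was used is not given in the sources used here. Whether the PR and ERα libraries of a replicate share chromatin is not given either. For every peak the deposited lists give a score, a fold enrichment, a −log10 p, a −log10 q and a summit offset. The fold enrichment was read as the ratio of summit coverage to local expectation, with 1 added to each. It is not scaled between libraries. Every deposited −log10 p was at least 2.

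Summit coverage and local expectation were recovered from the deposited fold and −log10 p by solving for a whole-number coverage under a Poisson model, and 100% of peaks in each list matched their −log10 p to within 1e-04. The background depth is the 0.001 quantile of the expectation. Peaks were ranked within a list by −log10 p, and overlapping peaks (1 bp) were merged, over the 4 libraries of a receptor and over all 8. A Y541S-only or WT-only region had a peak in both libraries of that genotype and none of the other, and a reproducible region had a peak in both replicates. Peak numbers were compared as log2 values with exact permutation tests, which cannot go below p = 0.333 for 2 against 2 libraries. Genes came from RefSeq (GRCm38.p6, the assembly of mm10) with starts and ends only, so exons and introns were not separated. Calculations used Python 3.11.15, NumPy 2.4.6, pandas 2.3.3 and SciPy 1.17.1, and figures matplotlib 3.10.9. Coverage recovery, merging and tests were checked on simulated data.

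The members, the lists (E proteins, other basic helix-loop-helix genes, BMP and SMAD genes, ETS genes and cell type markers), tests and alternatives were chosen with earlier results of these data known. Regions named were the 3 best-ranked of those in all 4 libraries of a receptor for each Id gene, every region specific to a genotype and every region overlapping an Id gene or within 1 kb of its start. Regions in all 8 libraries, or in every library of 1 receptor and none of the other, were named in addition, after their values were seen. Of each list, up to 3 genes with most regions were named.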

Additional observations from a re-analysis of the deposited data

How the results depend on the processing

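Of 160 values computed under other settings, 12 changed sign and 50 counts or shares moved, while the other 98 kept the sign of a log2 difference or, for counts and shares, stayed within 1.5 times or the reported interval. The log2 differences that kept their sign still varied, at 0.05 to 0.67 for PR and 0.11 to 0.39 for ERα by genotype, and down to −0.59 and −0.63 for PR against ERα in Y541S and WT. With the 20000 strongest peaks of each list, the genotype log2 difference in peak number was −0.00725 for PR and −0.0437 for ERα. With −log10 q of at least 1.3, PR against ERα was 0.0628 in Y541S and 0.0229 in WT, and with windows of 100 kb it was 0.16 and 0.22. With −log10 p of at least 5 it was 0.40 in Y541S. The labels link replicates by number only and do not say what same-numbered libraries share. Within a receptor, deviations of same-numbered libraries correlated at 0.0099 for PR and 0.11 for ERα over 21887 genes, and nothing was crossed. Pairing of PR with ERα libraries was not tested in this way. With the replicate block the log2 differences were as reported, with exact p of 0.5 for ERα and 1 for PR. Within replicate 2 alone, the replicate block gave −0.25 for PR by genotype and 0.17 for PR against ERα in WT. Leaving out 1 library gave −0.0929 to 0.51 for PR and 0.14 to 0.34 for ERα by genotype, and −0.28 to 0.0349 and −0.39 to 0.21 for PR against ERα in Y541S and WT.

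PR Y541S-only regions numbered 5 with −log10 p of at least 5, 0 with the 20000 strongest peaks, 2 with coverage scaled to the shallowest library, 0 within 10 kb, 6 within 100 kb, and 30 and 9 within replicates 1 and 2 alone. PR WT-only regions numbered 1 with −log10 p of at least 5, 0 with the 20000 strongest, 0 within 10 kb, and 12 and 17 within replicates 1 and 2. ERα Y541S-only regions numbered 4 with −log10 p of at least 5, 1 with the 20000 strongest, 1 within 10 kb, 6 within 100 kb, and 21 and 23 within replicates 1 and 2. ERα WT-only regions numbered 0 with the 20000 strongest, 0 within 10 kb, 0 with an overlap of 50%, and 11 and 21 within replicates 1 and 2. Leaving out 1 library gave 2 to 18 and 3 to 14 PR regions, and 6 to 15 and 1 to 13 ERα regions, for Y541S-only and WT-only regions in that order.

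The share of ERα regions that overlapped PR in Y541S was 0 of 8 with the 20000 strongest peaks and 44.7% to 76.0% with 1 library left out. In WT it was 28.6% with −log10 p of at least 5 and 24.3% to 72.2% with 1 library left out. Regions in all 8 libraries numbered 1 with −log10 p of at least 5, 0 with the 20000 strongest and 4 to 9 with 1 library left out (9 without PR WT replicate 1, 7 without ERα Y541S replicate 2). Regions in every PR and no ERα library numbered 3 with the 20000 strongest and 1 to 2 with 1 library left out, and those in every ERα and no PR library 2 and 4 to 5. Settings for these last 3 counts were chosen after seeing the data. The cause of these changes was not tested, beyond fewer peaks or libraries in the setting itself. With 1 library left out, a presence class rests on fewer libraries, so its count can rise but hardly fall. Presence in a list limits all of this: unequal depth and list length move a weak peak in or out, and 2 libraries a group cannot pass a 0.05 threshold.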

Other observations

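Over the 8 libraries, the coding genes outside its window whose peak numbers were most like those of Id1, the Id gene with most peaks, were Xpnpep3, Stoml2 and 1190005I06Rik. Their summed absolute differences of log2(peaks + 1) from Id1 were 0.78, 0.83 and 0.87. Xpnpep3 had 13 and 12 PR peaks in Y541S glands, against 10 and 16 in WT glands, and 17 and 15 ERα peaks in Y541S glands, against 13 and 16 in WT glands.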
